A study of Sus scrofa with 12 samples.

Results

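The 10 genes described here handle the storage of fat in cells. They were chosen by name, and they are PLIN1, PLIN2, PLIN4 and PLIN5, which code for perilipins, FABP3 and FABP4, which code for fatty acid binding proteins, LPL, SCD, PPARG and ADIPOQ. All 10 have a position among the 27788 genes of the RefSeq table of the pig genome (Sscrofa11.1). The tissue was longissimus muscle of 2-week-old male piglets of the Large White breed (LW), which the labels call a commercial lean pig breed, and of the Meishan breed (MS), a Chinese local pig breed. Neither breed was treated. H3K27ac BL-HiChIP and GRID-seq each gave 2 libraries per breed, replicates 1 and 2. The sources used here do not say whether the replicates of a breed came from different animals, so p-values measure the spread between these libraries, which may be technical.

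H3K27ac BL-HiChIP (bridge linker HiChIP) records pairs of DNA sites that touch in the nucleus, in chromatin enriched for H3K27ac. This is the histone mark found at promoters and enhancers in use. The authors looked for contacts between a peak of the mark and any other site, so the other site need not carry it. A loop is a pair of 5-kb anchors that touched more often than the caller's background model allows. A loop was given to a gene when an anchor lay at most 1 kb from the start or the end of the gene. GRID-seq records RNAs together with the DNA they lie on. Its lists name each RNA that passed the selection of the authors, its RNA reads, and its signal on each 1-kb DNA bin. That signal is relative to the RNA's own reads, so it describes where an RNA lies and not how much of it there is. An RNA missing from a list was not shown to be at 0.

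A fat-storing cell keeps triacylglycerol in lipid droplets. Perilipins coat the droplet and control the access of lipases to it. PLIN1 is the perilipin of adipocytes, PLIN2 is found in most tissues, and PLIN5 is found in tissues that burn fat, such as muscle and heart. LPL, lipoprotein lipase, frees fatty acids from circulating lipoproteins at the capillary wall, fatty acid binding proteins carry them inside the cell, and SCD puts the first double bond into saturated fatty acids. PPARG is the nuclear receptor that drives adipocyte formation, and ADIPOQ codes for adiponectin, a hormone secreted by adipocytes. In muscle these genes act in the fibres themselves and in adipocytes lying between the fibres.

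The loop lists held 33353 to 57028 loops per library, and 36.2% to 46.2% of all genes had a loop. The GRID-seq lists held 519 to 681 RNAs per library with 7172517 to 9943666 RNA reads. Together they named 734 RNAs, where the gene table holds 27788 genes, so most genes had no listed RNA. Of the 12 skeletal muscle fibre markers, 7 had an RNA in all 4 lists, among them TTN, NEB, ACTA1 and CKM. Of the fibroblast markers COL1A1 and COL1A2 were in all 4 lists, and no endothelial or macrophage marker was in any. Of the 6 adipocyte markers ADIPOQ, PLIN1, FABP4, LEP, CFD and CIDEC, none had a listed RNA in any library, while CEBPB and GPD1 of the 19 adipocyte factors and adipokines listed for comparison were in all 4. The samples were whole tissue, where fewer cells of a type and less RNA per cell cannot be told apart.

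LPL had by far the most loops, and the adipocyte genes PLIN1 and ADIPOQ had no loop in any library. PLIN2 and FABP3 had higher loop scores in both LW libraries than in both MS libraries. PLIN5, whose strongest loops were also counted for PLIN4, had lower ones. Such a separation towards LW, in 2 of 8 genes, was close to the 21.2% of all genes. Over the 10 genes the LW libraries had 22 and 24 loops and the MS libraries 18 and 22. Counting each loop once, 56 loops were found, 38 in LW and 35 in MS, and 17 of them were in both breeds. The share of LW loops also called in MS was 44.7% for these genes and 34.7% for all loops, and the share of MS loops also called in LW was 48.6% and 44.2%. Only 1 of the 56 loops was called in all 4 libraries. No such share was taken over all loops, so nothing about these genes is read from this count. A loop score was obtained for each gene by adding up −log10 of the deposited q value over its loops. It is a measure of how firmly loops were called and not a count of contacts.

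**Figure D1:**
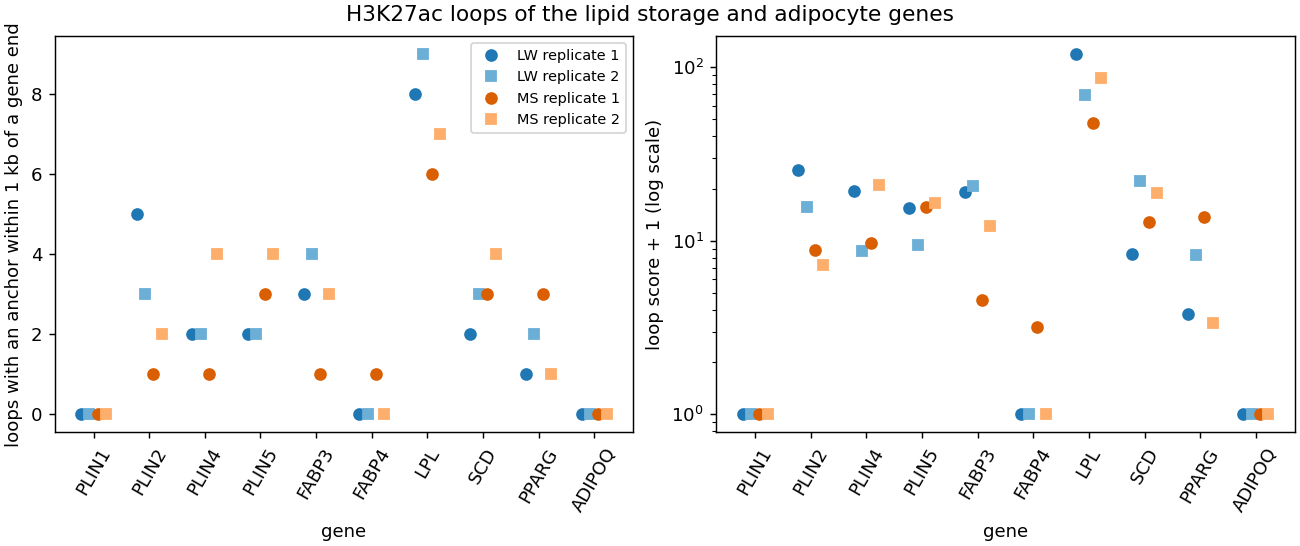
Number of loops (left) and loop score plus 1 on a log scale (right) of each gene in each H3K27ac BL-HiChIP library, with 1 point per library. LPL lies above the other genes in all 4 libraries with 6 to 9 loops, and PLIN1 and ADIPOQ lie at 0 loops in all 4.

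The loop scores were compared between breeds with limma over the 15266 genes with a loop in any library, on the log2(score + 1) scale after quantile normalization. Of the 8 genes tested, 0 passed the thresholds of the study, a log2 difference above 1.5 and an unadjusted p under 0.05, and 0 had an unadjusted p under 0.05. DESeq2 on the rounded scores also gave 0 of 8. The background was 818 of 15266 genes past these thresholds, or 5.36%, of which 52.8% were higher in LW, and 0 genes had a Benjamini-Hochberg adjusted p under 0.05. Without normalization 76.8% of the genes past the thresholds were higher in LW, and with scaling by the library total 70.5% were. The median log2 difference (LW minus MS) of the 8 genes was −0.48, and that of all genes was 0.02. The median of all genes was 0.39 without normalization, so that unnormalised differences are relative to that shift. Both LW libraries lay above both MS libraries in 2 of the 8 genes and in 21.2% of all genes, and both MS libraries lay above both LW libraries in 1 of the 8 and in 6.99% of all genes.

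PLIN2 (chromosome 1, 203683867 to 203709277) codes for the perilipin that coats droplets outside adipocytes. It had 5 and 3 loops in LW and 1 and 2 in MS. Its loop score was 24.6 and 14.7 for LW and 7.80 and 6.24 for MS. The breeds did not overlap, but the log2 difference of 1.00 ± 0.76 (SE) did not pass the test (limma adjusted p = 0.993). All 6 of its loops had an anchor at the lower end of the gene, and 5 of them reached outside it, over 10 to 45 kb. The loop of 35 kb was called in both LW libraries and in neither MS library, with −log10 q of 4.74 and 2.42. The loop of 10 kb into the gene was likewise called in both LW libraries, with −log10 q of 3.10 and 7.31. No loop of PLIN2 was called in both MS libraries. A loop of 15 kb was called in LW replicate 1 and MS replicate 2, with −log10 q of 9.83 and 2.69. A loop of 10 kb to the next bin outside the gene was called in LW replicate 2 and MS replicate 1, with 4.96 and 7.80. Each library thus had a loop from the lower end of PLIN2 to that pair of neighbouring bins.

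PLIN5 (chromosome 2, 74304613 to 74314314) and PLIN4 (chromosome 2, 74318624 to 74331920) are neighbours 4.31 kb apart, and some loops touched both. PLIN4, whose protein coats nascent droplets, had 2 loops in each LW library and 1 and 4 in the MS libraries. Its score was 18.3 and 7.78 for LW and 8.67 and 20.0 for MS, and the breeds overlapped (log2 difference −0.36 ± 0.85, limma adjusted p = 1.00). PLIN5 had 2 loops in each LW library and 3 and 4 in the MS libraries. Its score was 14.4 and 8.43 for LW and 14.7 and 15.4 for MS, so that LW replicate 1 lay just under both MS libraries (−0.72 ± 0.76, limma adjusted p = 0.993).

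A loop of 15 kb joined the 2 ends of PLIN4 in both MS libraries, with −log10 q of 8.67 and 8.49. It ran from the anchor that also covers the stretch towards PLIN5 to the far end, which touches HDGFL2. It was in neither LW list. LW replicate 1 instead had a loop of 25 kb from inside PLIN5 to the same end, with −log10 q of 8.71, and LW replicate 2 a loop of 10 kb from the near end of PLIN4 into the gene. A short loop of 5 kb at the far end of PLIN4 was called in both LW libraries and in MS replicate 2. The anchor on that far end was thus used in all 4 libraries.

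**Figure D2:**
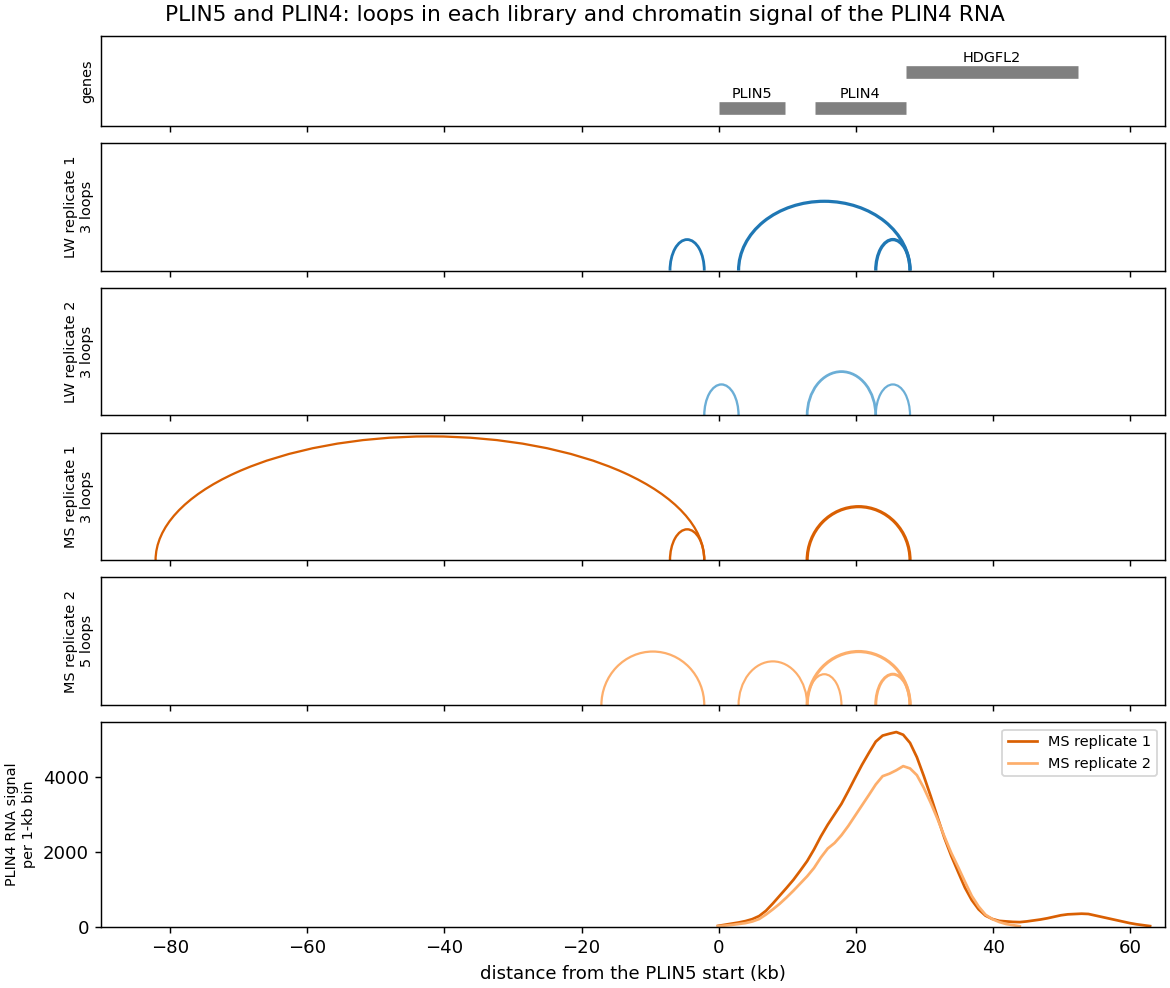
Positions of PLIN5, PLIN4 and HDGFL2 (top), the loops of PLIN4 and PLIN5 in each library as arcs between anchor centres, thicker for a larger −log10 q, and the signal of the PLIN4 RNA per 1-kb bin in the MS libraries (bottom), against distance from the PLIN5 start in kb. The arc of 15 kb is in both MS libraries and in neither LW library, and the PLIN4 RNA signal peaks near the far end of PLIN4 and falls off over PLIN5.

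FABP3 (chromosome 6, 87943003 to 87950708) codes for the fatty acid binding protein of heart and skeletal muscle. The lower end of FABP3 lies 0.146 kb from the upper end of ZCCHC17, so a loop at that end touches both genes. The FABP3 RNA is listed on the minus strand, so it starts at the upper end. FABP3 had 3 and 4 loops in LW and 1 and 3 in MS, with scores of 18.0 and 19.7 for LW and 3.58 and 11.2 for MS. Both LW libraries lay above both MS libraries. The log2 difference was 1.07 ± 0.88 and did not pass the test (limma adjusted p = 0.993). It was 0.24 without MS replicate 1, and 1.84 and just past the thresholds of the study without MS replicate 2. The loop of 5 kb out of the upper end of the gene was called in both LW libraries, with −log10 q of 11.5 and 9.22, and in neither MS library. MS replicate 2 had a loop of 10 kb from the same end to the next bin, with 2.18. A loop between the 2 ends of the gene was called in LW replicate 1 and MS replicate 2, and a loop of 20 kb in LW replicate 2 and MS replicate 2.

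FABP4 (chromosome 4, 55096400 to 55101209), the fatty acid binding protein of adipocytes, had a loop of 130 kb in MS replicate 1, with a −log10 q of 2.20, and no loop in the other 3 libraries. Its difference of −1.06 ± 0.79 did not pass the test (limma adjusted p = 0.993). The value rested on MS replicate 1, as the fitted difference was −1.79 and past the thresholds without MS replicate 2, and without MS replicate 1 there was no loop to test. PLIN1 (chromosome 7, 55237517 to 55250797) and ADIPOQ (chromosome 13, 124633906 to 124646237) had 0 loops in each of the 4 libraries. Of 19530 protein-coding genes, 37.3% had none either.

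LPL (chromosome 14, 4104761 to 4134964) had 8 and 9 loops in LW and 6 and 7 in MS. Summed over the 4 libraries it had more loops than 96.8% of the protein-coding genes. Its scores were 118 and 68.5 for LW and 46.4 and 85.4 for MS. The highest score was that of LW replicate 1 and the lowest that of MS replicate 1, and the breeds overlapped (log2 difference 0.43 ± 0.84, limma adjusted p = 0.995). MS replicate 2, the library with the fewest loops in all, had the second highest score.

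The 19 different loops of LPL shared a few anchors. Their far anchors fell mostly on 2 stretches beyond the upper end of the gene, bins from 4180001 to 4200000 and from 4225001 to 4235000. The loop of 130 kb, from the lower end of LPL to the bin at 4230001, was the loop called in all 4 libraries. Its −log10 q was 23.3 and 11.8 for LW and 11.7 and 25.8 for MS, and no gene of the table has an end at its far anchor. A loop of 30 kb between the 2 ends of the gene was called in every library but LW replicate 2, with −log10 q of 4.77, 6.05 and 7.03. In LW replicate 2 the bin next to it made this contact, over 25 kb, with 10.6. The strongest single call was the loop of 95 kb in LW replicate 1, with a −log10 q of 55.6, and it was also called in MS replicate 2 with 17.2. MS replicate 1 had a loop to the neighbouring bin, 90 kb away, with 15.3, and LW replicate 2 a loop of 90 kb between a bin inside the gene and the same far anchor as the loop of 95 kb, with 15.1.

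**Figure D3:**
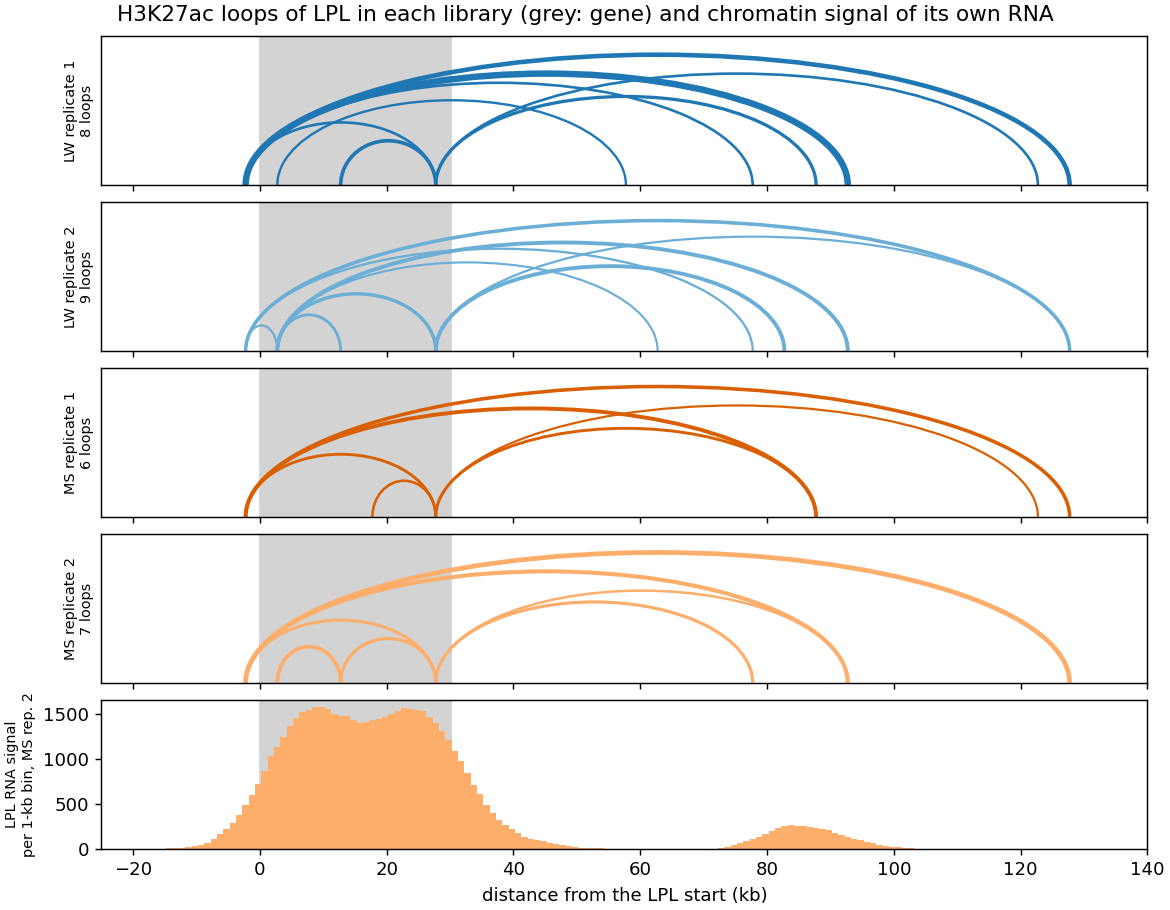
H3K27ac loops of LPL in each library as arcs between anchor centres, thicker for a larger −log10 q, and the signal of the LPL RNA per 1-kb bin in MS replicate 2 (bottom), against distance from the LPL start in kb. The longest arc, of 130 kb, is in all 4 libraries, and the second run of RNA signal lies where the arcs to about 80 to 95 kb end.

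SCD (chromosome 14, 111461560 to 111478033) had 2 and 3 loops in LW and 3 and 4 in MS, with scores of 7.43 and 21.0 for LW and 11.9 and 17.8 for MS. Both MS libraries lay between the LW libraries (log2 difference −0.60 ± 0.91, limma adjusted p = 0.995). Its loop of 20 kb, spanning the gene, had −log10 q of 4.94 and 12.3 in LW and 10.7 in MS replicate 2. A loop of 10 kb to the stretch before the gene was called in LW replicate 2 and both MS libraries, with −log10 q of 5.41, 3.65 and 2.30. A loop of 60 kb was called in both MS libraries and in neither LW library, with −log10 q of 2.05 and 2.07, both close to the limit of the lists.

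PPARG (chromosome 13, 68301566 to 68433951) had 1 and 2 loops in LW and 3 and 1 in MS, with scores of 2.79 and 7.31 for LW and 12.8 and 2.34 for MS. The highest and the lowest score were both in MS (−0.92 ± 1.02, limma adjusted p = 0.993). All 5 of its loops started at the lower end of the gene. The loop of 135 kb, which ended near LOC106505675, was called in both LW libraries and MS replicate 1 with −log10 q of 2.79, 4.74 and 5.06. MS replicate 2 had a loop of 130 kb, to the next bin, with 2.34. All 4 libraries thus had a loop from the lower end of PPARG to that pair of neighbouring bins. MS replicate 1 also had a loop of 170 kb across the gene.

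Of the RNAs of the 10 genes, 3 were in the GRID-seq lists, PLIN4, FABP3 and LPL, and none of them was in an LW list. All lists together named 734 RNAs, where the gene table holds 27788 genes. PLIN4 had 1058 and 1276 RNA reads in the MS libraries, FABP3 had 743 and 829, and LPL had 3391 in MS replicate 2 and was not in the list of MS replicate 1. The RNAs of PLIN1, PLIN2, PLIN5, FABP4, SCD, PPARG and ADIPOQ were in no list. Being listed in both MS libraries and neither LW library held for 2 of these 3 RNAs. Over the 734 named RNAs in any list it held for 85, or 11.6%, and the reverse held for 67, and with 3 RNAs nothing is read from the comparison. The number of RNAs in a list differed within a breed too, from 571 to 681 in LW and from 519 to 649 in MS.

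PLIN4 and FABP3 were among the less abundant RNAs listed, and LPL was near the middle of its list. By RNA reads PLIN4 ranked 404 of 519 and 494 of 649 in the MS lists, FABP3 447 and 564, and LPL 309 of 649. Per kb of outline PLIN4 had 47.7 and 57.6 reads, FABP3 84.2 and 94.0, and LPL 109. The lowest value per kb in the MS lists was 38.7 and 37.7, and in the LW lists 39.6 and 44.1. PLIN4 was thus close to the lower end of the lists in both MS libraries. The part of this limit in its absence from the LW lists was not tested.

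No RNA of the 10 genes was in all 4 lists, so 0 of them could enter the edgeR quasi-likelihood test of RNA reads, which covered 307 RNAs and called 267 of them, or 87%, at an adjusted p under 0.05. With an unlisted RNA taken as 0, 1090 RNAs could be tested and 12.1% were called and higher in MS. PLIN4 and FABP3 were among those called and LPL was not. Their direction was set by the assumption, since they entered this fit only through the MS lists, so no fold is given and nothing is read from the calls.

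**Figure D4:**
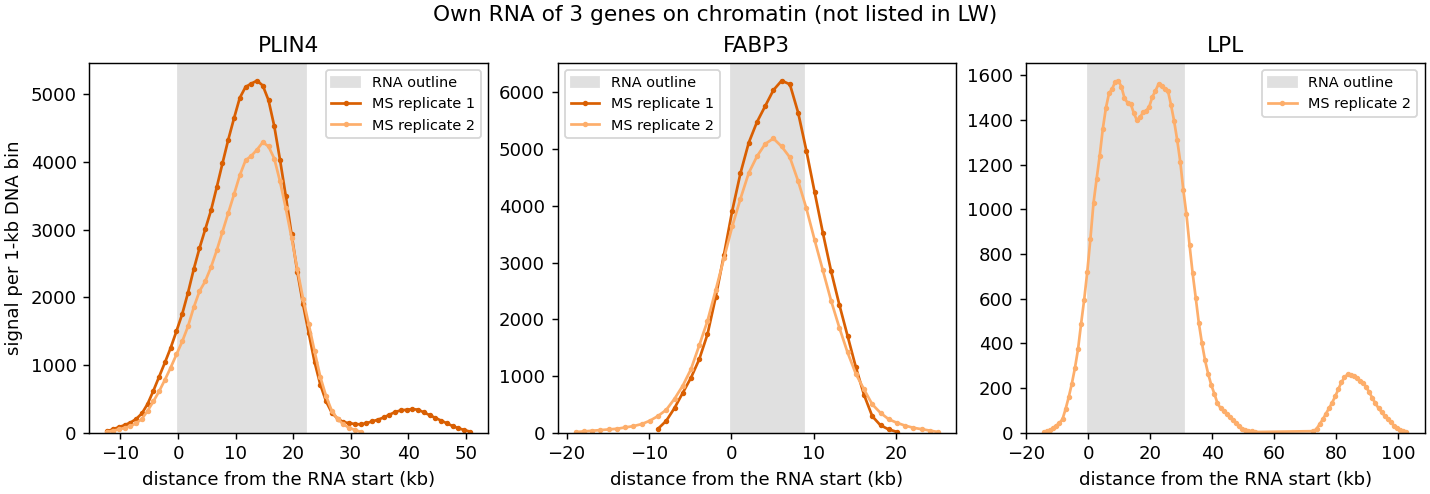
Signal of the PLIN4, FABP3 and LPL RNAs per 1-kb DNA bin against distance from the RNA start in kb, along the RNA, for the MS libraries that list them. Each RNA lies mainly over its own outline (grey), and LPL has a second run that peaks 83.7 kb from its start.

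All 3 RNAs lay on the chromatin of their own locus, and none had a bin on another chromosome, as held for 87.5% and 87.7% of the RNAs in the MS lists. The share of the signal within 10 kb of the outline was 95.8% and 99.9% for PLIN4, 99.98% and 98.5% for FABP3 and 91.8% for LPL. The median over all RNAs of the MS lists was 92.7% and 86.8%. The signal changes smoothly from bin to bin, so that neighbouring bins are not independent values.

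The PLIN4 RNA peaked in the bin at 74330001 in MS replicate 1 and in the next bin in MS replicate 2, with 5198 and 4288. These bins are at the end of PLIN4 that touches HDGFL2. The outline of the PLIN4 RNA runs 7.05 kb into HDGFL2, and 37.5% and 41.4% of its signal lay over HDGFL2, while 3.95% and 3.63% lay over PLIN5. In MS replicate 1 a second, low peak of 348 lay 40.7 kb from the RNA start, and MS replicate 2 had none. The anchor at this end, from 74330001 to 74335000, held 24.6% and 26.6% of the PLIN4 RNA signal. It was an anchor of the loop of 15 kb that was called in both MS libraries, and of loops in both LW libraries. The neighbouring anchor, from 74325001 to 74330000, held 25.0% and 24.3%. The other anchor of the loop of 15 kb, from 74315001 to 74320000, held 9.28% and 8.97%. The list gives the PLIN4 RNA on the plus strand.

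The FABP3 RNA, on the minus strand, peaked inside the gene in neighbouring bins at 87945001 and 87946001, with 6205 and 5186. It covered 30 bins in MS replicate 1 and 45 in MS replicate 2, without a gap. The bins from 87945001 to 87950000 held 34.999% and 33.4% of its signal.

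The LPL RNA, on the plus strand, was spread over the whole gene, with a pair of peaks of 1576 and 1561 at 9.73 and 22.7 kb from its start. After an unlisted gap it had a second run of 31 bins from 4177001 to 4208000 with 6.91% of its signal, and a peak of 261 at 4188001. Far anchors of LPL loops lie in this run. The loops to the bins from 4180001 to 4200000 were called in all 4 BL-HiChIP libraries from one end of LPL or the other. The LPL RNA had no listed bin on the anchors at 4225001 and 4230001, although the loop of 130 kb to the latter was the strongest of LPL in MS replicate 2.

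The RNAs of other genes reached few of the 10 genes in LW and more of them in MS. Within 5 kb of the gene ends, RNAs of other genes had signal at 2 and 3 of the 10 genes in LW and at 8 and 6 in MS. PLIN4 and PLIN5, 4.31 kb apart, share part of these windows, so they are not independent. Of all 27788 genes, 45.2% and 52.9% had such signal in LW and 52.9% and 59.9% in MS. FABP4 had none in any library. Apart from PLIN4 RNA on PLIN5, the summed signal at a gene was 2.33 to 49.9 in LW and 3.03 to 59.9 in MS where there was any. The median over all genes with signal from other RNAs was 18.0 and 26.98 for LW and 16.4 and 19.6 for MS.

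**Figure D5:**
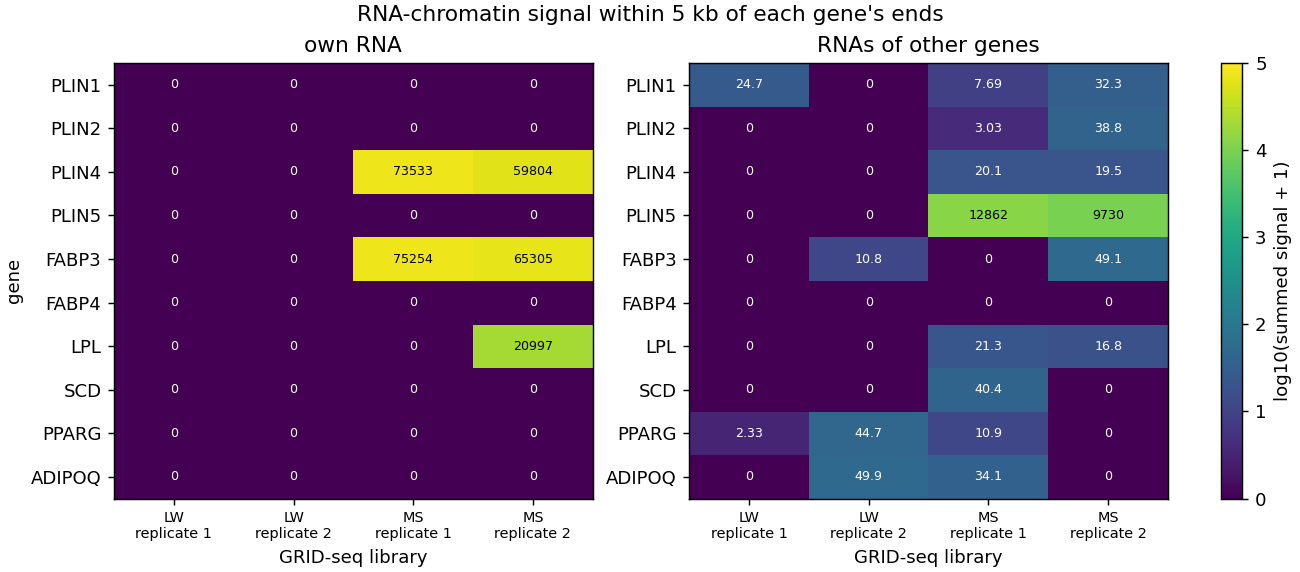
Summed RNA-chromatin signal within 5 kb of the ends of each gene in each GRID-seq library, from the gene's own RNA (left) and from RNAs of other genes (right), with colour on a log10 scale and the value printed in each cell. A 0 means that no bin was listed. Own RNA appears in MS for PLIN4, FABP3 and LPL, and the high values at PLIN5 are RNA of its neighbour PLIN4.

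The summed signal of all RNAs was tested with limma over 23465 genes, on the log2(signal + 1) scale after quantile normalization. Of the 9 genes with signal, 3 passed the thresholds of the study, a log2 difference above 2 and an unadjusted p under 0.05, and all 3 were higher in MS. Over all genes 8.26% passed in that direction and 15.8% in either, and 0 genes had an adjusted p under 0.05, where 3701 had an unadjusted p under 0.05. The 3 genes were PLIN4, PLIN5 and FABP3. PLIN4 had no listed signal in either LW library and had 73553 and 59824 in MS (limma adjusted p = 0.109). PLIN5 had none in LW either and had 12862 and 9730 in MS (limma adjusted p = 0.109). FABP3 had none in LW replicate 1, 10.8 in LW replicate 2, and 75254 and 65354 in MS, which is −14.53 ± 1.49 on the log2 scale of the fit (limma adjusted p = 0.111). Without MS replicate 1 the p of FABP3 rose just above 0.05, at −14.47. The PLIN4 RNA made up nearly all the MS signal of both PLIN4 and PLIN5, so their values are not independent. The PLIN4 and FABP3 RNAs that carry these differences were unlisted in LW and entered the fit there as 0. The direction of the differences was thus set by the listing. Their sizes are not measured folds, and nothing is read from the calls.

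With only the RNAs of other genes, FABP3 was no longer past the thresholds, with a log2 difference of −1.14 ± 2.55 (limma adjusted p = 0.85). Then 3 of 9 genes passed, PLIN5, which still held the PLIN4 RNA, PLIN4 and LPL, where 8.16% of all genes did so with MS higher. PLIN4 had 20.1 and 19.5 in MS and no listed signal in LW (limma adjusted p = 0.198). LPL had 21.3 and 16.8 in MS and none in LW (limma adjusted p = 0.201). Both levels are near the median gene. At PLIN5 the RNAs other than PLIN4 gave 55.0 and 59.9 in MS and no listed signal in LW. The 3 genes had no listed bin in LW and entered the fit there as 0. The direction of their differences was thus set by the listing, and nothing is read from the calls. The windows of PLIN4 and PLIN5 overlap, so their values are not independent.

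The RNAs of other genes came from few sources. On the perilipin genes the RNA of ENSSSCG00000048856, from chromosome 2, was the most frequent. It was at PLIN4 with 18.3 and 19.5 and at PLIN5 with 17.0 and 47.3 in the MS libraries, and at PLIN1 with 24.7 in LW replicate 1 and 17.6 in MS replicate 2. The windows of PLIN4 and PLIN5 overlap, so bins in the overlap count for both genes. PLIN2 had signal in MS alone, in MS replicate 1 from the RNA of TTN, which codes for titin, the giant elastic protein of the sarcomere, and in MS replicate 2 from SAMD4A with 33.1. At FABP3 the RNA of ENSSSCG00000044834 had 10.8 in LW replicate 2 only.

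At LPL the TTN RNA had 21.3 in MS replicate 1 and the RNA of ENSSSCG00000048037 had 16.8 in MS replicate 2, so that the MS libraries had like sums from different RNAs. SCD had signal in MS replicate 1 only, 40.4 from 3 RNAs, of which ENSSSCG00000048037 gave 28.7. The RNA reads of TTN were 914086 and 1016278 for LW and 697633 and 830738 for MS, and its RNA was at none of the 10 genes in LW or in MS replicate 2.

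The adipocyte genes PPARG and ADIPOQ had signal in LW. The RNA of MBNL1, which codes for a splicing regulator of muscle and lies on chromosome 13 as both genes do, was at PPARG with 2.33 and 44.7 in LW and at ADIPOQ with 49.9 in LW replicate 2. It was at none of the 10 genes in MS. In MS replicate 1 PPARG had 10.9 in all, and ADIPOQ had 34.1 of an unannotated RNA, Tx.295. Neither gene had signal in MS replicate 2. The difference of PPARG, 2.19 ± 1.71 on the log2 scale with LW higher, did not pass the test (limma adjusted p = 0.654), and that of ADIPOQ was −0.59 ± 3.05 (limma adjusted p = 0.947). PLIN1 had 24.7 and 0 for LW and 7.69 and 32.3 for MS, a difference of −1.33 ± 2.26 (limma adjusted p = 0.800). PLIN2 and SCD had no listed signal in LW and did not pass (limma adjusted p = 0.339 and adjusted p = 0.654).

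Other genes of the same pathways were read from lists. For loop scores, 0 of 14 tested genes of lipid droplet turnover passed the thresholds, 1 of 16 of fatty acid uptake and oxidation, 1 of 12 of fatty acid and triacylglycerol synthesis and 2 of 16 of the adipocyte factors and adipokines, all 4 higher in LW. Together this was 4 of 58 genes, or 6.9%, close to the 5.36% of all genes. The list medians were −0.14, −0.26, 0.59 and 0.01, against 0.02 for all genes. ACACB, the acetyl-CoA carboxylase that controls fatty acid entry into mitochondria, had scores of 13.3 and 8.30 in LW and 0 in both MS libraries (limma adjusted p = 0.804). SLC27A4, a fatty acid transport protein, had 7.40 and 2.66 in LW and 0 in MS (limma adjusted p = 0.929). ADIPOR1, a receptor of adiponectin, had 7.46 and 8.91 in LW and 0 in MS (limma adjusted p = 0.804). NNAT, neuronatin, had 21.8 and 15.5 in LW and 0 in MS (limma adjusted p = 0.804).

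For RNA-chromatin signal 1 of 14 lipid droplet turnover genes passed with MS higher, and so did 2 of 17 of uptake and oxidation and 2 of 18 adipocyte factors, while 1 of 17 of uptake and oxidation and 1 of 15 of synthesis passed with LW higher. Together this was 7 of 64 genes, or 10.9%, under the 15.8% of all genes. ANGPTL4, a secreted inhibitor of LPL, had 46771 and 31467 in LW and 94.3 and 34.9 in MS (log2 difference 8.55 ± 1.44, limma adjusted p = 0.162). Its own RNA was in both LW lists with 1096 and 1061 reads and in neither MS list. ACADVL, the very long chain acyl-CoA dehydrogenase of mitochondrial oxidation, had 18.6 and 125.9 in LW and 48070 and 36379 in MS (−9.86 ± 0.94, limma adjusted p = 0.110), and its RNA was in the MS lists alone with 594 and 688 reads. PPARGC1A, a coactivator of mitochondrial genes, had 0 and 20.0 in LW and 1419 and 1937 in MS (−8.80 ± 1.73, limma adjusted p = 0.185). Its RNA was in the MS lists alone too, with 22025 and 26233 reads, and it had no loop in any library. Own RNAs unlisted in a breed entered the fit there as 0. The direction of these differences was thus set by the listing, and their sizes are not measured folds.

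The other genes past these thresholds had no RNA listed under their names. Their values are thus signal at their loci and not RNA of the genes. ELOVL6, a fatty acid elongase, had 1230 and 1650 in LW and 14.9 and 0 in MS (8.27 ± 1.78, limma adjusted p = 0.191). ABHD5, the activator of adipose triglyceride lipase, had no listed signal in LW and had 16.1 and 24.0 in MS (limma adjusted p = 0.183). ADIPOR2 had 12.6 and 30.3 in LW and 47.3 and 878 in MS (−3.81 ± 1.22, limma adjusted p = 0.284), and CFD, adipsin, had 0 and 0.0235 in LW and 8.54 and 35.4 in MS (−3.85 ± 1.11, limma adjusted p = 0.243).

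In all 4 GRID-seq lists were 4 RNAs of these pathways, and they allowed the test of RNA reads. PPARD, a nuclear receptor that raises fatty acid oxidation in muscle, had 11217 and 13416 reads in LW and 14169 and 18696 in MS, and its log2 difference of −0.57 passed (edgeR adjusted p = 0.00123). CPT1B, the muscle carnitine palmitoyltransferase, had 1634 and 1843 in LW and 1592 and 1915 in MS (−0.17, edgeR adjusted p = 0.00137). GPD1, the enzyme that makes glycerol 3-phosphate, had 1132 and 1195 in LW and 1126 and 1296 in MS (−0.22, edgeR adjusted p = 0.00465). CEBPB, a transcription factor of early adipocyte formation, had 557 and 622 in LW and 488 and 579 in MS, with a difference of −0.02 (edgeR adjusted p = 0.803). The 3 called were higher in MS, where 87% of the tested RNAs were called in either direction.

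Markers of other cell types moved in both directions between the breeds. No muscle fibre or fibroblast marker passed for loop scores or RNA-chromatin signal, and among the RNA reads 3 of 7 fibre markers were higher in LW and 4 in MS, with log2 differences from −0.69 for CKM to 0.70 for NEB. COL1A1 and COL1A2 were higher in MS by reads, with log2 differences of −0.50 and −0.45 (edgeR adjusted p = 0.00127 and 0.000445). This test called 87% of all tested RNAs in either direction. The median log2 differences of the 6 fibroblast markers went towards LW, with 0.78 for loop score and 1.11 for RNA-chromatin signal. For RNA-chromatin signal 2 of 6 endothelial markers, CLDN5 and TEK, and 2 of 5 macrophage markers, CD163 and CSF1R, passed with LW higher. Of the endothelial markers 1, KDR, passed with MS higher. Of all genes 15.8% passed in either direction. No RNA of these markers was in any list, so the values are signal at their loci and not RNA of the markers. Of the satellite cell markers 1 of 3 passed for loop scores and 1 of 4 for RNA-chromatin signal, both higher in LW. Of all genes 5.36% and 15.8% passed in either direction. PAX7 had loop scores of 18.5 and 14.6 in LW and 0 in MS (limma adjusted p = 0.804). The CDH15 RNA was in the LW lists alone, with 1749 and 1959 reads, as held for 67 of the 734 named RNAs. The loop scores of CDH15 overlapped, with 37.5 and 22.7 in LW and 33.6 and 4.34 in MS. With so few markers nothing is read from these counts. The part of cell composition in the values above was not tested.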

How the data were processed

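Samples were grouped by breed and replicate as the labels give them. The members and the gene lists were chosen with earlier results of these data known. For BL-HiChIP, the authors trimmed linkers, aligned reads with BWA-MEM to the pig genome, paired them with Pairtools and called loops per library with FitHiChIP. The value they deposited per loop was read as a q-value, since all lie under 0.01. For GRID-seq, the authors aligned RNA and DNA ends with Bowtie2, kept the RNAs enriched on chromatin and subtracted a background. The deposited whole number per RNA was read as its count of RNA reads and the deposited value per bin as a signal. The lists have no header, and read depth of the BL-HiChIP libraries was not used here. The submitters' processing notes name Trim Galore 0.4.5, Bowtie2 2.2.5, SAMtools 1.9 and MACS2 2.1.2.

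Positions of genes were those of RefSeq on Sscrofa11.1, in a table which gives no strand, so both gene ends were used. Windows were 1 kb for loops and 5 kb for signal. Loop scores sum −log10 q, with 2 deposited values of 0 set to the smallest value held. Scores and signals were quantile-normalized and tested with limma 3.58.1 in R 4.3.3 on log2(value + 1), which understates changes of low values. RNA reads were tested with edgeR 4.0.16 (TMM, quasi-likelihood) over RNAs in all 4 lists, with DESeq2 1.42.0 as an alternative. Adjusted p-values are Benjamini-Hochberg over all features tested. An exact permutation test of 2 against 2 libraries cannot go below p = 0.333 and was not used. Signals of a pair of RNA and bin listed more than once were summed. Scripts were tested on simulated data. Other genes were named when past a threshold of the study without overlap of libraries, or, for RNA reads, when in all 4 lists. For RNAs of other genes, the 3 with the largest mean signal per gene were named, except 1 RNA that is not reported here. Python 3.11.15, pandas 2.3.3 and matplotlib 3.10.9 were used.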

Additional observations from a re-analysis of the deposited data

How the results depend on the processing

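Of 93 log2 differences of loop score and 106 of RNA-chromatin signal under the alternatives, 85 and 89 kept their direction and their side of the thresholds. The count of genes past the loop thresholds was 0 of 8, except 1 (FABP4) with a pseudocount of 0.1, and 0 to 2 when each library was left out, with the lone library of a breed taken to vary like the others. The count past the RNA-chromatin thresholds was 3, and 5 with windows of 10 kb or a pseudocount of 0.1, which added LPL and PLIN2, and it ranged from 3 to 5 when each library was left out. The 5, without MS replicate 2, added LPL and SCD, and without MS replicate 1 LPL and PLIN2 were added and FABP3 was lost, at −14.47 against −14.53. For RNA reads the count was 0, and 2 (PLIN4 and FABP3) with missing RNAs taken as 0. Leaving out each library in turn reversed 4 log2 differences of loop score, PLIN4 (range −1.01 to 0.27, above 0 without LW replicate 2, 0.037, or MS replicate 2), LPL (−0.21 to 1.00), SCD (−1.45 to 0.30) and PPARG (−1.68 to 0.073), the last 3 when LW replicate 1 was left out. In RNA-chromatin signal it reversed PLIN1 (−4.25 to 1.16, without LW replicate 2) and ADIPOQ (−3.69 to 2.57, without either replicate 1). ADIPOQ also reversed without normalization (0.27) and with scaling by the library total (0.17), and the cause was not tested. Loops required in both libraries of a breed numbered 8 in LW and 5 in MS, and a q value of at most 0.001 left 23 in MS. Shares like these were not taken over all loops, so nothing about these genes is read from the counts. With each anchor allowed 1 bin away, 65.8% of LW and 77.1% of MS loops were in the other breed, against 58.7% and 72.8% of all loops. Taking the gene and 10 kb around it raised the LPL own RNA signal from 20996.5 to 51469.

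With the replicate block, the number of members past the thresholds was 0 for loops, 4 for RNA-chromatin signal, where LPL was added, and 0 for RNA reads. The labels give no shared animal or batch for a replicate number. The differences between replicates 1 and 2 of the breeds correlated with r = 0.35 over genes for loops, −0.01 for RNA-chromatin signal and 0.94 over RNAs for reads. Over all genes 818 were past the loop thresholds, 1255 with the replicate block, 243 with DESeq2, 1381 with a pseudocount of 0.1, 1582 without MS replicate 2 and 1441 without LW replicate 1. With 2 libraries per breed, differences as large as that of PLIN2 in loop score were within the error of the test.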
